A study of Mus musculus with 14 samples.

Results

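Zinc reaches the cytosol of a cell through the ZIP importers of the Slc39a family, leaves it through the ZnT exporters of the Slc30a family, and is held inside by the metallothioneins Mt1 and Mt2, small cysteine-rich proteins that bind zinc and copper. In liver this system takes up zinc during inflammation, and it also handles manganese and iron, since Slc39a8 and Slc39a14 carry these metals too. Metallothionein genes are switched on by zinc through the metal sensor Mtf1, which binds short metal response elements, and also by glucocorticoids and cytokines. The genes described are 8 members of this system, namely the importers Slc39a4, Slc39a5, Slc39a8 and Slc39a14, the exporters Slc30a1 and Slc30a10, and Mt1 and Mt2. A member was read by its probe set annotated to that symbol alone, and where several existed the probe set was to be chosen by the highest mean over the 14 arrays. For 6 of the 8 members exactly 1 such probe set was found, so no choice by level was made, and these are 6 of the 22180 genes tested. Slc30a1, a zinc exporter of the plasma membrane, and Slc30a10, a manganese exporter, were each read only by 2 probe sets that also name another gene, and no values are given for them.

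The arrays measured liver RNA of male C57BL/6 mice on 14 arrays, counted here as 1 mouse per array since the labels mention no pooling. All mice carried Alb-cre, a transgene with the albumin promoter that makes Cre recombinase in hepatocytes. Whether Lmna stays in place in other liver cells was not measured. KO mice were LMNA flx/flx; Alb-cre+ with both copies of the lamin A and C gene floxed, HET mice were LMNA flx/+; Alb-cre+, and WT mice were LMNA +/+; Alb-cre+. On normal chow there were 3 KO mice aged 38.9 weeks, 3 HET mice aged 24 to 26.4 weeks and 2 WT mice aged 24.6 and 27 weeks. A further 3 KO mice aged 35.3 weeks and 3 HET mice aged 30 to 30.4 weeks had received the Surwit high fat diet for 14 weeks, with 42 g/L of carbohydrate (55% fructose, 45% sucrose) in the drinking water. This regimen is called HFD, and WT mice on HFD are not analysed here. KO mice were thus older than HET mice by 13.3 weeks on chow and by 5.17 weeks on HFD on average, and age and genotype cannot be told apart by design. HET mice on HFD were 4.53 weeks older than HET mice on chow, whereas KO mice on HFD were 3.6 weeks younger than KO mice on chow, so diet and age cannot be told apart either, nor can the interaction and age. In bulk liver, fewer cells of a type and less RNA per cell also cannot be told apart.

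Values are log2 intensities, a difference is one of group means with ± its standard error from limma, and a call means an adjusted p under 0.05 over all 22180 genes (Benjamini-Hochberg). The median of an array over all its probe sets lay between 2.21 and 2.30, and values near it were taken as close to background, so that differences from such values have an uncertain size. Lmna itself, read by 1 dim probe set, ranged over 3.67 to 4.09 in KO livers on chow, 4.25 to 4.40 in HET and 4.43 to 4.50 in WT livers on chow, and over 3.90 to 4.07 in KO and 4.07 to 4.30 in HET livers on HFD. KO and HET livers overlapped on HFD. The KO minus WT difference of Lmna on chow was called (-0.62 ± 0.14, adjusted p = 0.0393), and those of KO minus HET on each diet were not (adjusted p = 0.0823 on chow and 0.517 on HFD, limma). Averaged over both diets, KO minus HET was called (-0.31 ± 0.09, adjusted p = 0.0386, limma), and that call held in 11 of 24 alternatives. The call against WT held in 7 of 24 alternatives and in 3 of 14 fits with an array left out (adjusted p up to 0.190). The floxed exons and the place of the probes are not given in the labels, so the Lmna level is a limited check of the genotypes. The listed hepatocyte markers stood high in every array, with a mean level of 11.88 to 12.21. No 2 arrays held identical values.

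The promoters of both metallothioneins and of Slc39a5 are shown because these genes differ in the letters that the metal sensor is known to recognise. The sequences are from RefSeq on GRCm38.p6, run 5′ to 3′ on the strand of the gene, and cover 250 bases before and 50 after an annotated start. Capitals mark each match to the core of the metal response element, written TGCACNC or TGCGCNC, on either strand and with overlapping matches merged. Of the 8 members 6 were found in the promoter table, and Slc39a4 and Slc39a14 are named only.
Mt1, chr8:94178839-94179138, plus strand: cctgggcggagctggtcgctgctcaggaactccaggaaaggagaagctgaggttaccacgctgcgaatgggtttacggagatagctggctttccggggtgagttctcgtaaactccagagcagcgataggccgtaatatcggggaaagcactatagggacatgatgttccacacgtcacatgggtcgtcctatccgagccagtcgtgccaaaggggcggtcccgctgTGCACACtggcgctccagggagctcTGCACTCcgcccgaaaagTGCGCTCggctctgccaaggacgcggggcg
Mt2, chr8:94172368-94172667, plus strand: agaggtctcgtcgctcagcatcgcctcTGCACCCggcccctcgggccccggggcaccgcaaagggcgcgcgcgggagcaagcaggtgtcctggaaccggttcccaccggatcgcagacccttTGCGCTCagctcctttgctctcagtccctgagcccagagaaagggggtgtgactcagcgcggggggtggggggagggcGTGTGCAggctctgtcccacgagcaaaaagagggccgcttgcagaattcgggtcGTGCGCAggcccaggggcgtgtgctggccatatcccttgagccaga
Slc39a5, first start, chr10:128401175-128401474, minus strand: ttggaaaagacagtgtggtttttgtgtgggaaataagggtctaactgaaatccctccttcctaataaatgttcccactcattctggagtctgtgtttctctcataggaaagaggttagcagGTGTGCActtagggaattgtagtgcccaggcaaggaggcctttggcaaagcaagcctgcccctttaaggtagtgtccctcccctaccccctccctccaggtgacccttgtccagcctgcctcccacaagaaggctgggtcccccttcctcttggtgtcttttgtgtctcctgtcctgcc
Slc39a5, second start, chr10:128400417-128400716, minus strand: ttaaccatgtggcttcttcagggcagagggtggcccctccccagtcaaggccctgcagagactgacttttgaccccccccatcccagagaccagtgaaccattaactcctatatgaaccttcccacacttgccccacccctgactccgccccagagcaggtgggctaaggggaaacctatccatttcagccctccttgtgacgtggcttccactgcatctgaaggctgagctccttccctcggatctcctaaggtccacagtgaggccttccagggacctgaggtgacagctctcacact
The Mt2 window held 4 matches, 2 on each strand, and the Mt1 window held 3, all on the strand printed. Among all 32851 promoters of the same length, 25.7% held at least 1 match, 1.97% at least 3 and 0.517% at least 4. Slc39a5 had 1 match at its first start and 0 at its second, a number that many promoters reach or exceed. The windows of Slc39a8 held 0 and 1 matches, that of Slc30a1 held 2 and that of Slc30a10 held 3. Matches were counted before merging, and the 3 of Slc30a10 cover only 15 bases because matches on opposite strands overlap. Matches outside these windows were not counted, so the numbers describe the windows and not whole promoters. A match is a description of the letters and not evidence of binding.

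**Figure D1:**
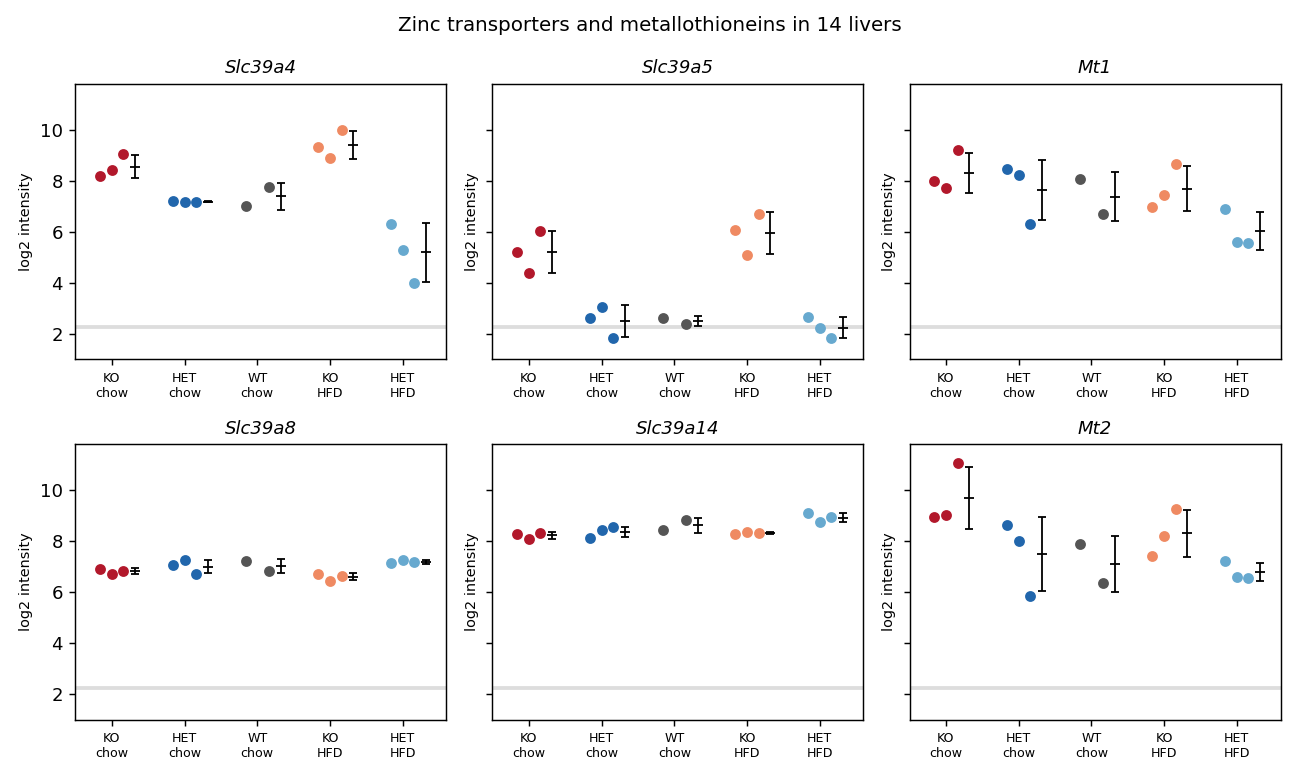
Log2 intensity of the 6 measured members in each of 14 livers (points), with group mean and SD beside them, the grey band marking the range of the array medians, 2.21 to 2.30. Slc39a4 and Slc39a5 sit higher in both KO groups than in every HET and WT liver, Slc39a8 and Slc39a14 vary little, and Mt1 and Mt2 spread widely within groups.

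Slc39a4, best known as the zinc importer of the gut whose loss in humans causes the zinc deficiency acrodermatitis enteropathica, differed most between genotypes on HFD. It stood at 9.30, 8.90 and 9.99 in KO livers on HFD, against 6.29, 5.26 and 3.999 in HET livers on HFD. Every KO liver was above every HET liver, with a gap of 2.61 on the log2 scale between the nearest livers. The difference of 4.21 ± 0.46 equals 18.5-fold and was called (adjusted p = 1.71e-04, limma). With age as a linear term the difference was 4.50 and not called (adjusted p = 0.134). On chow the values were 8.17, 8.40 and 9.04 in KO livers, against 7.21, 7.17 and 7.14 in HET livers and 7.01 and 7.76 in WT livers. The groups again did not overlap, but the differences of 1.36 ± 0.46 against HET (adjusted p = 0.192) and of 1.15 ± 0.51 against WT (adjusted p = 0.403, limma) were not called. With only the HET and KO chow arrays fitted, the chow difference from HET passed (adjusted p = 0.0380). It passed in only this 1 of 25 alternatives, and in 0 of the 14 fits with an array left out.

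On HFD, KO and HET livers lay on opposite sides of their chow levels of Slc39a4. All 3 HET livers on HFD lay below all 3 HET livers on chow (-1.99 ± 0.46, adjusted p = 0.126), while 3 of 3 KO livers on HFD lay above the KO chow mean of 8.54, with overlapping ranges (0.86 ± 0.46, adjusted p = 0.535). The interaction of genotype and diet was 2.85 ± 0.65 with an unadjusted p of 7.55e-04, and it was not called over all genes (adjusted p = 0.171, limma). In order of means, KO on HFD (9.40 ± 0.55, SD, n = 3) stood first and KO on chow (8.54 ± 0.45, SD, n = 3) second, with overlapping ranges. WT on chow (7.38 ± 0.53, SD, n = 2) and HET on chow (7.17 ± 0.03, SD, n = 3) followed, also overlapping, and HET on HFD (5.18 ± 1.15, SD, n = 3) stood apart at the bottom. Without HET liver A2 the diet difference in HET became -2.54 and passed (adjusted p = 0.0464), the only 1 of 25 alternatives in which it did.

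Slc39a5, an importer of the basolateral membrane of gut and pancreas cells that also occurs in liver, was near background in every control liver and clearly above it in every KO liver. On chow it read 5.20, 4.38 and 6.03 in KO livers, against 2.63, 3.05 and 1.83 in HET livers and 2.62 and 2.36 in WT livers. On HFD it read 6.05, 5.07 and 6.71 in KO livers, against 2.65, 2.22 and 1.84 in HET livers. The lowest KO liver was thus 1.33 above the highest of the 8 HET and WT livers. The rises were 2.70 ± 0.45 against HET on chow (adjusted p = 0.00807), 2.72 ± 0.51 against WT on chow (adjusted p = 0.0158) and 3.71 ± 0.45 against HET on HFD (adjusted p = 3.97e-04, limma), and all 3 were called. Because the HET and WT values lie around the array medians, the sizes are uncertain. The call against WT was lost without WT liver G1 (adjusted p = 0.0763), WT liver N1 (0.147) or KO liver I1 (0.0579), with every probe set tested (0.0523) and with only the groups compared fitted (0.0632), while the calls against HET held without any single array. With age as a linear term none of the 3 was called, and the differences were -1.36 against HET on chow, -1.29 against WT on chow and 2.13 against HET on HFD.

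No diet difference in Slc39a5 was called within a genotype. KO livers on HFD exceeded KO livers on chow by 0.74 ± 0.45 (adjusted p = 0.606) and HET livers on HFD differed from HET livers on chow by -0.27 ± 0.45 (adjusted p = 0.901, limma), both with overlapping ranges. The 95% interval of the KO diet difference ran from -0.25 to 1.72, and its value from 0.32 without H2 to 1.17 without C3. Both KO groups overlapped, as did the 3 control groups among themselves.

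Slc39a8 and Slc39a14 are close relatives that import zinc, manganese and iron, and Slc39a14 is the importer that interleukin-6 raises in liver. Both were lower in KO than in HET livers on HFD, by far smaller steps. Slc39a14 stood at 8.28, 8.36 and 8.32 in KO livers on HFD, against 9.09, 8.75 and 8.95 in HET livers on HFD. These groups did not overlap, and the difference of -0.61 ± 0.14 was called (adjusted p = 0.0198, limma). For Slc39a8 the values were 6.73, 6.46 and 6.65 in KO livers, against 7.13, 7.27 and 7.17 in HET livers on HFD. Here too the groups were apart, and the difference of -0.58 ± 0.15 was called (adjusted p = 0.0310, limma). Both calls were fragile, although that of Slc39a8 held with age as a linear term (-1.46, adjusted p = 0.0362, limma). That of Slc39a14 was lost without A2, B2, C2 or C4 (adjusted p 0.0503 to 0.0758) and with age as a linear term, where the difference was 0.0232 (adjusted p = 0.991), and that of Slc39a8 without any one of A2, B1, B2, C2, C3 or C4 (0.0546 to 0.109), with all probe sets tested (0.0667) and with median centring (0.0510).

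On chow these importers showed no called difference. Slc39a14 read 8.28, 8.07 and 8.34 in KO livers, against 8.15, 8.43 and 8.55 in HET livers and 8.43 and 8.83 in WT livers, so KO and HET overlapped (-0.14 ± 0.14, adjusted p = 0.739), and KO lay below WT (-0.40 ± 0.16, adjusted p = 0.334). The difference from WT was -0.20 without WT liver N1 and -0.60 without WT liver G1. Slc39a8 read 6.92, 6.72 and 6.85 in KO livers, against 7.06, 7.25 and 6.72 in HET livers and 7.24 and 6.83 in WT livers, overlapping throughout (-0.18 ± 0.15 against HET, adjusted p = 0.673, limma). In HET livers Slc39a14 was higher on HFD than on chow without overlap (0.56 ± 0.14, adjusted p = 0.174), whereas in KO livers the same diet difference was 0.09 ± 0.14 (adjusted p = 0.890, limma). The interaction was -0.47 ± 0.20 and not called (adjusted p = 0.472). For both genes every neighbour in the order of group means overlapped with the next, with HET on HFD highest.

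Beside these smaller falls, some markers of liver cell types were also called on HFD, where 5.5% of all genes were higher and 2.06% lower. On chow 1.44% of all genes were higher and 0.478% lower. Of the macrophage markers (3 of 16 higher and 1 lower on chow) 5 of 16 measured were higher and 1 lower in KO than in HET livers on HFD, with list means of 6.66 to 6.84 in KO and 5.69 to 6.17 in HET livers. For stellate cell markers (1 of 12 higher and 1 lower on chow) 4 of 12 were higher and 1 lower on HFD. Their list means on HFD were 6.24 to 6.55 in KO and 5.51 to 5.81 in HET livers. Of the hepatocyte markers (0 called on chow) 4 of 11 were lower on HFD. Their list means on HFD were 11.88 to 11.95 in KO and 12.12 to 12.16 in HET livers. Endothelial markers showed 0 higher and 1 lower of 10 on HFD and 0 called on chow, and neutrophil markers 0 called of 8 on either diet. Lymphocyte markers had 0 called of 8 on either diet, with list means of 3.81 to 4.03 in KO and 3.23 to 3.47 in HET livers on HFD. Their part in the falls of Slc39a8 and Slc39a14 was not tested.

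Averaged over the 5 groups, the SD within a group was 0.91 for Mt1 and 1.01 for Mt2, against 0.54 for Slc39a4, 0.57 for Slc39a5 and 0.17 for Slc39a8 and Slc39a14. Single groups departed from this order, since in HET livers on HFD the SD was 0.74 for Mt1 and 0.36 for Mt2 and 1.15 for Slc39a4. On chow Mt2 stood at 8.96, 9.03 and 11.09 in KO livers, against 8.62, 8.02 and 5.87 in HET livers and 7.90 and 6.35 in WT livers. KO livers were the highest, without overlap with either control group. The differences of 2.19 ± 0.73 against HET (adjusted p = 0.191) and 2.57 ± 0.82 against WT (adjusted p = 0.193, limma) were not called, and without HET liver P1 the difference from HET was 1.37. Mt1 on chow overlapped, at 7.97, 7.71 and 9.18 in KO livers, against 8.43, 8.21 and 6.29 in HET livers and 8.05 and 6.69 in WT livers. Its difference between KO and HET was 0.64 ± 0.63 (adjusted p = 0.740, limma), and without HET liver P1 it turned to -0.04.

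On HFD both metallothioneins lay higher in each KO liver than in each HET liver. Mt1 read 6.95, 7.42 and 8.67 in KO livers, against 6.86, 5.60 and 5.56 in HET livers (1.67 ± 0.63, adjusted p = 0.147). Mt2 read 7.44, 8.22 and 9.26 in KO livers, against 7.21, 6.61 and 6.56 in HET livers (1.51 ± 0.73, adjusted p = 0.269, limma). The closest pair of livers, KO C2 and HET A2, was 0.08 apart for Mt1, so the separation is narrow. As a mean of both diets, KO exceeded HET livers by 1.85 ± 0.52 for Mt2, which was called (adjusted p = 0.0413), and by 1.15 ± 0.45 for Mt1, which was not (adjusted p = 0.141, limma). The Mt2 call was lost without any one of 8 arrays (F2, P1, I1, A2, B1, B2, C3 or C4, adjusted p 0.0567 to 0.102), with every probe set tested (0.0937), with a trended and robust prior (0.0727) and with array weights (0.0626). With age as a linear term the Mt2 difference turned to -6.21. Without both F1 and F2 the Mt1 difference was 1.83. That fit left P1 as the only HET liver on chow, the lowest of its group for Mt1 (6.29).

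Mt1 and Mt2 moved together from liver to liver. I1 was highest for both among the KO livers on chow, C4 among those on HFD, A2 among HET livers on HFD, and P1 was lowest for both among HET livers on chow. I1, A2 and P1 differ in array letter from the other livers of their groups, and A2 and P1 also in age. C4 shares letter and age with C2 and C3. What the letters stand for is not given in the labels, and their part was not tested. After centring each gene on its mean, Mt1 was the gene most alike to Mt2 (predicted genes and small RNAs left out), at a root mean square difference of 0.66 on the log2 scale over 14 arrays, against 1.36 for Mt2 about its own mean. The genes lie next to each other on chromosome 8 and are similar in sequence, so the probe sets may share signal and may not be separate measurements. The mean level of the 12 listed glucocorticoid receptor targets was also highest in I1 on chow (9.01) and in C4 on HFD (8.90) among KO livers. Among HET livers it was lowest in P1 (7.71) on chow and highest in A2 (8.18) on HFD. Other livers ran the other way, with 7.62 in G1 and 7.91 in N1 among WT livers, where both metallothioneins were higher in G1, and with 8.47 in C2 and 8.19 in C3 among KO livers on HFD, where both were higher in C3. The list member Fkbp5, a standard glucocorticoid target, was highest in I1 (7.14) among KO livers on chow and in C4 (6.44) among those on HFD. It was also highest in A2 (6.56) among HET livers on HFD. Fkbp5 ran the other way in HET livers on chow, with 5.91 in P1 and 4.93 and 4.39 in F1 and F2. The same held in WT livers, with 4.77 in G1 and 6.46 in N1, and between C2 (5.68) and C3 (5.60). The part of these targets in the metallothionein values was not tested.

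Against the background of all genes the calls of the 6 measured members can be read as follows. For KO against HET on chow 1 of 6 was called, Slc39a5, where 1.92% of all genes were called (1.44% higher and 0.478% lower), and for KO against WT on chow again 1 of 6, where 1.65% were (1.24% higher and 0.41% lower). On HFD 4 of 6 were called for KO against HET, 2 higher and 2 lower, where 7.56% of all genes were called (5.5% higher and 2.06% lower). The median difference of the 6 was 1.59, against -0.02 over all genes. It falls between Mt2 (1.51) and Mt1 (1.67), neither of which was called, and the called members went both ways. Averaged over both diets 5 of 6 were called, 3 higher and 2 lower, against 9.43% of all genes (6.52% higher and 2.9% lower). These included Slc39a8 (-0.38 ± 0.10, adjusted p = 0.0380) and Slc39a14 (-0.38 ± 0.10, adjusted p = 0.0324, limma), whose calls held in 12 and 14 of 25 alternatives. With 1 array left out, the 4 called on HFD became 2 without A2, B2, C2 or C4, and the 5 averaged over diets became 2 without F2, A2, B2, C3 or C4 and 3 without P1, H2, I1 or B1. None of the 6 was called for HFD against chow in HET livers (0.198% of all genes) or in KO livers (0.316%), or in the interaction (0.0361%), although 3, 0 and 2 of them had an unadjusted p under 0.05 in limma, as had 10.2%, 11.1% and 9.86% of all genes. The members were proposed with earlier results of these data known, so these shares describe them and test nothing. The KO comparisons against HET and WT on chow share the KO arrays.

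**Figure D2:**
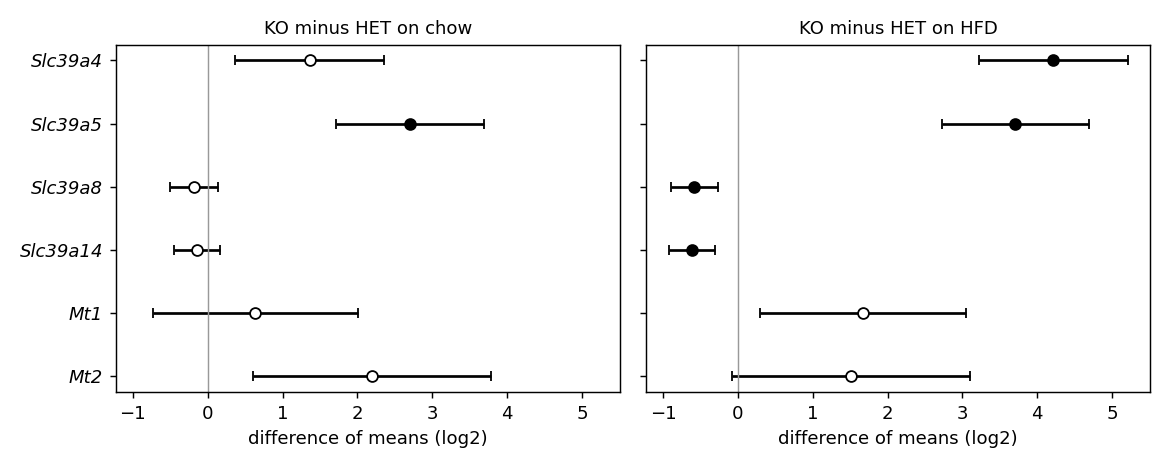
Difference of means, KO minus HET, in log2 units with 95% intervals from limma for the 6 measured members on chow (left) and on HFD (right), filled points being called at an adjusted p under 0.05. On HFD Slc39a4 (4.21) and Slc39a5 (3.71) lie far to the right and Slc39a8 (-0.58) and Slc39a14 (-0.61) to the left of 0, and on chow only Slc39a5 (2.70) was called.

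No member was called between HET and WT livers on chow. The differences ran from -0.26 for Slc39a14 to 0.38 for Mt2, with overlapping ranges for all 6 and an adjusted p of 0.999 each (limma). In this comparison 0% of all genes were called, and 0 of the 6 members and 954 of the 22180 genes had an unadjusted p under 0.05. With 2 WT livers the intervals were wide, reaching from -1.40 to 2.15 for Mt2 and from -1.32 to 0.90 for Slc39a4.

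The other zinc transporters put these changes in proportion. The remaining ZIP importers were all measured, 10 of 10, and the remaining ZnT exporters too, 8 of 8, which makes 22 transporters with the 4 importers above. Of the 10 other importers 1 was higher and 0 lower in KO than in HET livers on HFD, and of the 8 other exporters 0 and 1. None of these was called on chow. Over all genes 5.5% were higher and 2.06% lower on HFD, and 1.44% and 0.478% on chow. The 4 importers above were chosen with earlier results of these data known. Counting them in makes 3 of the 22 higher and 3 lower on HFD, and 1 higher and 0 lower on chow. On HFD, 19 of the 22 differed by less than 1 on the log2 scale, the exceptions being Slc39a4, Slc39a5 and Slc30a3. Slc39a11, an importer of the Golgi and other inner membranes, was the other one that rose, averaging 6.18 ± 0.23 in KO and 5.61 ± 0.12 in HET livers on HFD (SD, n = 3 each; 0.57 ± 0.14, adjusted p = 0.0256, limma). Its chow difference was close in size, 0.51 ± 0.14, and was not called (adjusted p = 0.0939). Slc30a3, the exporter that loads synaptic vesicles with zinc in brain, was lower on HFD, at 2.61 ± 0.17 in KO and 3.82 ± 0.71 in HET livers (SD, n = 3 each; -1.22 ± 0.28, adjusted p = 0.0206, limma), both dim, so that its size is uncertain. The median difference on HFD was 0.22 for the 10 other importers and 0.10 for the 8 other exporters.

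**Figure D3:**
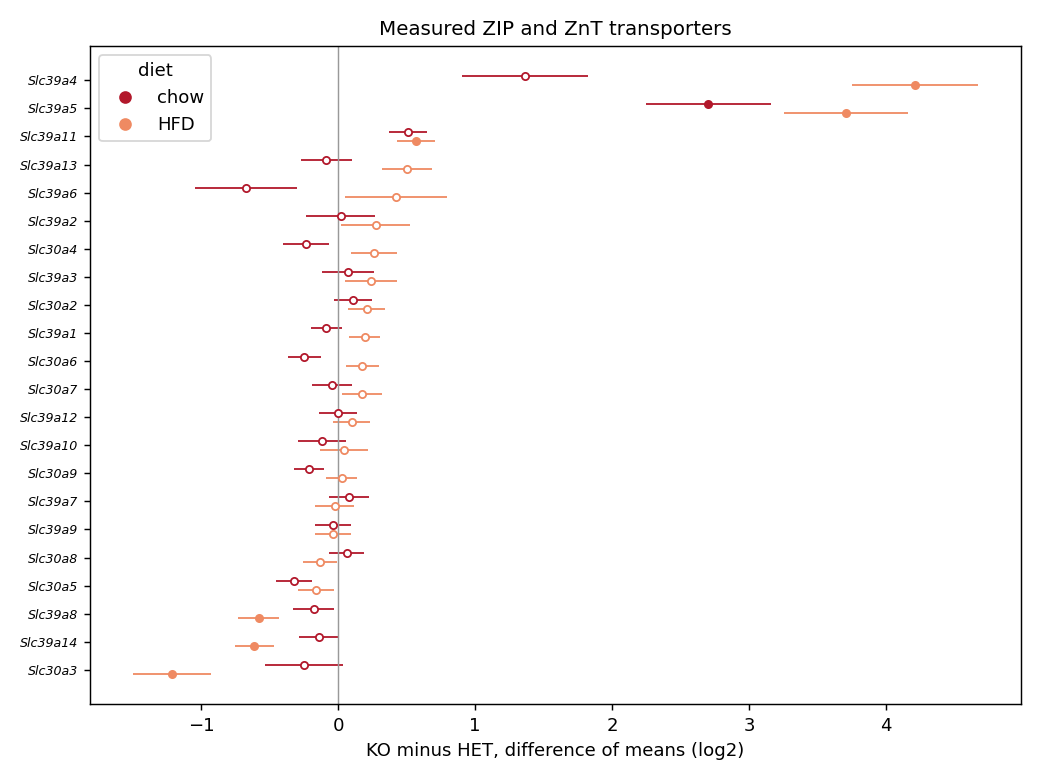
Difference of means, KO minus HET, in log2 units with standard errors for the 22 measured ZIP and ZnT transporters, on chow (red) and on HFD (orange), filled where called. Slc39a4 and Slc39a5 stand apart from the other 20, of which 19 lie within 1 of 0 on HFD.

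The metal sensor and the remaining metallothioneins showed no called change. Mtf1 averaged 6.54 ± 0.14 in KO and 6.69 ± 0.10 in HET livers on chow and 6.70 ± 0.11 in KO and 6.61 ± 0.23 in HET livers on HFD (SD, n = 3 each), with differences of -0.15 ± 0.13 (adjusted p = 0.679) and 0.09 ± 0.13 (adjusted p = 0.753, limma). Mt3 and Mt4, the metallothioneins of brain and of stratified epithelium, had group means of 1.45 to 1.93 in KO and HET livers, below the array medians. Their differences did not pass on either diet.

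For the other metals, 1 of 16 iron genes and 2 of 8 copper genes were called on HFD, where 7.56% of all genes were. Of the iron handling list 0 of 16 measured were higher and 1 was lower in KO than in HET livers on HFD, the lower one being Tfr2, a hepatocyte iron sensor (-0.48 ± 0.10, adjusted p = 0.0123), and 0 were called on chow. Hamp, the iron hormone hepcidin, differed by -0.12 ± 0.13 on HFD (adjusted p = 0.670, limma). In the copper list 2 of 8 were higher on HFD and 0 lower, both copper chaperones, Atox1 (0.68 ± 0.14, adjusted p = 0.0113) and Cox17 (0.55 ± 0.11, adjusted p = 0.00989, limma). On chow 0 of the 8 were called. The median difference on HFD was 0.22 for the iron list and 0.13 for the copper list, against -0.02 over all genes. Copper list means were 8.27 to 8.35 in KO and 8.02 to 8.17 in HET livers on HFD, and 8.24 to 8.32 in KO and 8.02 to 8.18 in HET livers on chow. Iron list means were 8.58 to 8.67 in KO and 8.44 to 8.50 in HET livers on HFD and overlapped on chow.

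Genes of the acute phase, which includes cytokine targets that rise with Slc39a14 in inflamed liver, were mostly not called between KO and HET livers. Those called were all higher in KO. Over all genes 5.5% were higher and 2.06% lower in KO than in HET livers on HFD, and 1.44% and 0.478% on chow. On HFD 4 of 20 measured acute phase genes were higher and 0 lower, with a list median of 0.01. Their list means were 9.10 to 9.26 in KO and 8.74 to 8.91 in HET livers on HFD, and overlapped on chow. The 4 were the plasma protein Orm2 (3.32 ± 0.23), the iron siderophore binder Lcn2 (3.24 ± 0.49), the endotoxin binder Lbp (0.58 ± 0.16) and the interleukin-1 antagonist Il1rn (1.17 ± 0.33). The interleukin-6 feedback gene Socs3 (-0.13 ± 0.28, adjusted p = 0.855) and its regulator Stat3 (-0.20 ± 0.12, adjusted p = 0.375, limma) were not called. On chow 1 of 20 was higher, again Orm2 (1.66 ± 0.23), and 0 lower. Among glucocorticoid receptor targets 2 of 12 were higher on HFD, Lcn2 and the cell cycle inhibitor Cdkn1a (3.92 ± 0.64), and 0 lower, with 0 called on chow. Of the endoplasmic reticulum and integrated stress list 1 of 15 was higher on HFD, Sesn2 (1.12 ± 0.24), and 0 lower, and on chow 0 were called. NRF2 targets, antioxidant genes that respond to metal stress as well, were higher for 10 of 14 on HFD and 4 of 14 on chow with 0 lower, among them on HFD Slc7a11 (4.26 ± 0.36), the cystine importer, and Nqo1 (3.38 ± 0.22), a quinone reductase.

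Since Slc39a4 and Slc39a5 are typical of gut and pancreas, markers of these organs were set beside them. Over all genes 5.5% were higher in KO than in HET livers on HFD, 1.44% on chow and 6.52% averaged over both diets. Of the 11 measured markers 1 was higher and 0 lower on HFD, and 0 were called on chow. The member that rose was Cela1, an elastase of pancreas (6.12 ± 0.61 in KO and 4.30 ± 0.28 in HET livers on HFD, SD, n = 3 each). Vil1, a protein of microvilli, read 4.33 ± 1.75 in KO and 2.13 ± 0.28 in HET livers on HFD and was not called there (2.203 ± 0.64, adjusted p = 0.0549, limma). Averaged over both diets Vil1 was called too (2.38 ± 0.45, adjusted p = 0.00482, limma), so that 2 of the 11 were higher. In KO livers 8 of the 11 lay below the array median on each diet, and in HET livers 9 of 11. Among these, the pancreatic Cpa1 (1.52 on average), the gut enzymes Sis (1.64) and Alpi (1.98) stayed below the array medians in KO livers on HFD. The list mean was 2.79 to 3.13 in KO and 2.73 to 2.79 in HET livers on HFD, and 2.67 to 2.94 in KO and 2.43 to 2.62 in HET livers on chow. Cholangiocyte markers showed 1 higher and 0 lower of 7 on HFD, the membrane protein Prom1 (1.32 ± 0.25), and 0 called on chow, with list means of 3.04 to 3.71 in KO and 2.84 to 2.89 in HET livers on HFD, and of 3.17 to 3.75 in KO and 2.82 to 3.12 in HET livers on chow. Averaged over both diets 2 of the 7 were higher. Their part in the rise of both importers was not tested.

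A few genes ran closely with the members over the 14 arrays, by the root mean square difference of centred log2 values. For Slc39a4 these were Orm2 (0.51) and the steroid hydroxylase Cyp2a4 (0.55), where Slc39a4 itself varied by 1.57 about its mean. Orm2 averaged 9.11 in KO, 7.45 in HET and 7.44 in WT livers on chow, and 9.50 in KO and 6.18 in HET livers on HFD. Like Slc39a4 it was thus highest in KO livers and lowest in HET livers on HFD, and its fall on HFD in HET livers was called (-1.27 ± 0.23, adjusted p = 0.0455, limma). For Slc39a5 the most alike were Gipc2 (0.43), a scaffold protein, and Rragd (0.44), a GTPase that signals amino acid supply to mTORC1, where Slc39a5 varied by 1.68. Rragd averaged 7.41 in KO, 4.84 in HET and 4.54 in WT livers on chow, and 8.33 in KO and 4.72 in HET livers on HFD. For Mt1 they were Asns (0.55), the asparagine synthetase, and Ube2u (0.57), a ubiquitin-conjugating enzyme, and for Mt2, after Mt1, the desaturase family member Fads3 (0.78). The measure ranks resemblance among these arrays only.

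**Figure D4:**
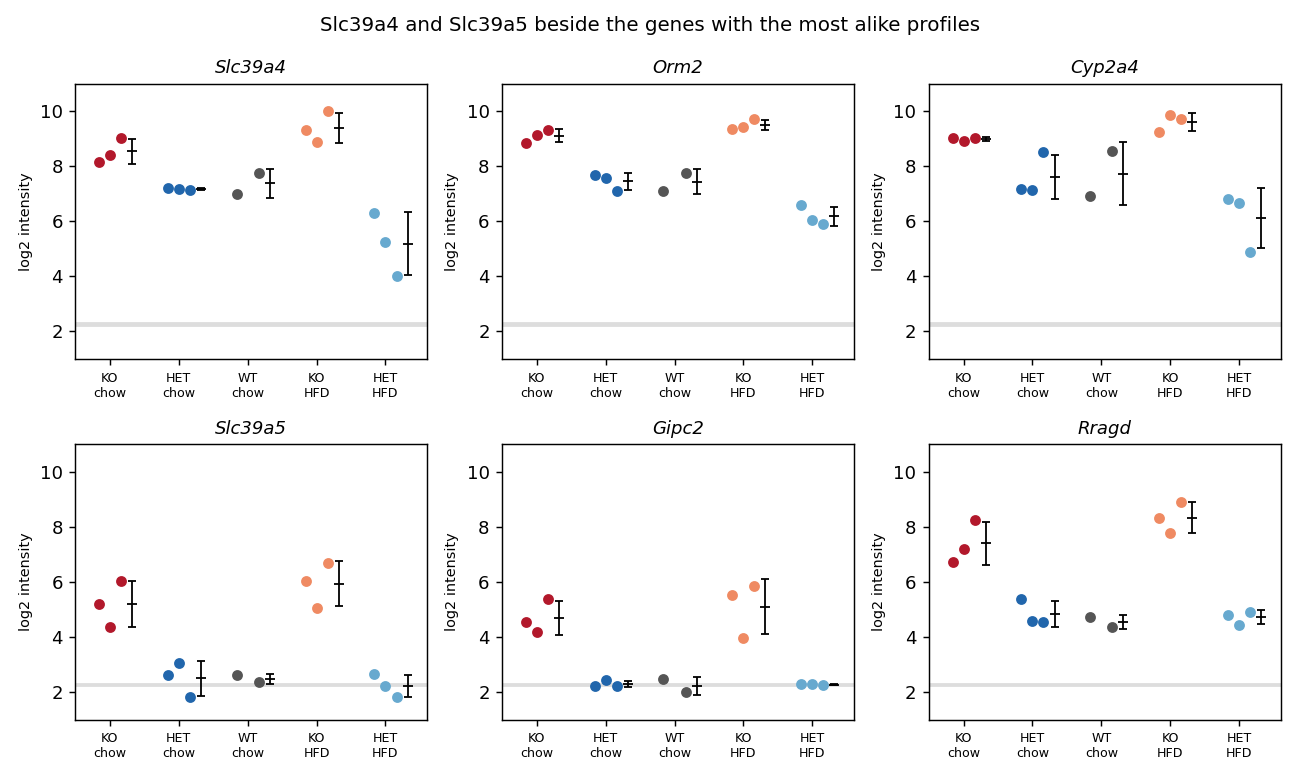
Log2 intensity in each of 14 livers for Slc39a4 with Orm2 and Cyp2a4 (top) and for Slc39a5 with Gipc2 and Rragd (bottom), with group mean and SD, the grey band marking the array medians of 2.21 to 2.30. The top genes are highest in KO livers and lowest in HET livers on HFD, and the bottom genes are high in KO livers on both diets.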

How the data were processed

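Liver RNA was hybridised to Affymetrix whole-transcript arrays after biotin labelling from 400 ng of total RNA, per the labels' protocols. The authors deposited 1 log2 intensity for each probe set and array, and the submitters' processing notes name RMA and limma without versions. RMA corrects background, equalises array distributions and summarises probes, so changes shared by all genes cannot be seen. No adjustment for batch is named there. Of 41345 probe sets 23521 carried 1 symbol in the platform annotation and 1814 several. The brightest per gene was kept, leaving 22180 genes with no filter on level. Group means were estimated from the 14 arrays together in limma 3.58.1 in R 4.3.3 (9 residual and 3.83 prior degrees of freedom), with 8 contrasts and p-values adjusted by Benjamini-Hochberg within each. Array number limits the precision.

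Genes named are the members, Lmna, called members of the gene lists (at most 4 per list and contrast by smallest p) and, for members spanning at least 2 on the log2 scale, the 2 most alike genes. Hamp, Socs3, Stat3, Fkbp5, Vil1, Cpa1, Sis and Alpi, and the uncalled members of the metallothionein list, were named after their values were seen. The members and lists were chosen with earlier results of these data known. Alternatives were array weights, a trended and robust prior, a dim filter at 4, averaging each gene's probe sets, testing every probe set, fits of only the groups compared, median centring, a second quantile normalization, the array letter as a random block, a linear age term, and leaving out arrays. The procedure was also run on simulated data with independent noise and shifts added to KO livers on HFD. Age, batch and correlation between genes were not simulated, so that run says nothing about the calls under these.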

Additional observations from a re-analysis of the deposited data

Results flagged for a closer look

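For Slc39a4 KO and HET livers on HFD lay on opposite sides of their chow means. All 3 KO livers on HFD lay above the mean of KO livers on chow, and all 3 HET livers on HFD lay below the mean of HET livers on chow. The interaction, the HFD minus chow difference in KO less that in HET livers, was 2.85 ± 0.65, with an unadjusted p of 7.55e-04 in limma, and was not called over all genes (adjusted p = 0.171). For Slc39a8 the opposite pattern appeared, with 3 of 3 KO livers below and 3 of 3 HET livers above their chow means, and an interaction of -0.40 ± 0.21 (adjusted p = 0.562, limma). Groups of 2 or 3 arrays are too small for a search for outlying arrays.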

How the results depend on the processing

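The calls of Slc39a4 and Slc39a5 between KO and HET livers on HFD held in 24 of 25 and 23 of 24 alternatives, and failed with age as a linear term. That term rests on age differences of at most 2.4 weeks within groups and is extrapolated over gaps of up to 13.3 weeks. The number of members called for KO against HET on chow was 0 with genes of a mean of at least 4 only, which removes Slc39a5, 0 with the age term and 2 with only the groups compared fitted. For KO against WT it was 0 with the dim filter, with all probe sets, with only the groups compared and with the age term, and 0 to 1 with an array left out. For KO against HET on HFD it was 1 with the age term, Slc39a8 at -1.46, and 2 to 4 with an array left out. Averaged over diets it was 2 with all probe sets, 3 with median centring, 0 with the age term and 2 to 5 with an array left out. For HFD against chow in HET it was 1 with the age term, Mt1 at -5.11, and 0 to 1 with an array left out. The causes were not tested.

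With the age term KO minus HET on chow turned to -1.36 for Slc39a5, 1.49 for Slc39a14, -9.54 for Mt1 and -9.42 for Mt2, and KO minus WT to -1.29, 1.21, -9.11 and -8.87 for the same genes. On HFD KO minus HET turned to 0.0232 for Slc39a14, -2.28 for Mt1 and -3.00 for Mt2, and over both diets to 0.76, -5.91 and -6.21. HET minus WT turned to 0.0108 for Slc39a8, HFD minus chow in HET to -0.59 for Slc39a8, and HFD minus chow in KO to 0.40 for Slc39a8, -0.36 for Slc39a14, 2.15 for Mt1 and 1.76 for Mt2. The interaction turned to 0.99 for Slc39a8 and 6.42 for Mt2. Array weights turned HET minus WT of Slc39a8 to 0.0368. Leaving out F1 and F2 left P1 as the only HET liver on chow, so the next values rest on that liver. KO minus HET on chow was then 0.11 for Slc39a8, and HET minus WT was -0.66 for Slc39a5, -1.08 for Mt1 and -1.26 for Mt2. HFD minus chow in HET was then 0.41 for Slc39a5 and 0.93 for Mt2, and the Mt1 interaction was -0.32. With single arrays left out, KO minus HET on chow of Mt1 ran from -0.0384 to 1.03 and KO minus WT of Slc39a8 from -0.41 to 0.000464. HET minus WT ran from -0.58 to 0.16 for Slc39a4, -0.26 to 0.35 for Slc39a5, -0.23 to 0.18 for Slc39a8, -0.41 to 0.96 for Mt1 and -0.40 to 1.20 for Mt2. HFD minus chow in HET of Slc39a5 ran from -0.60 to 0.00648, and the Mt2 interaction from -1.24 to 0.14. Over all genes KO against HET on chow gave 216 calls with only those groups fitted and 201 with the age term, KO against WT 162 and 124, and the age term gave 249 on HFD, 211 over both diets and 271 for diet in HET. Values near the array medians limit Slc39a5, Slc30a3, Mt3 and Mt4.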
